A study of Mus musculus with 8 samples.

Results

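Exon peaks are the ERRα-bound intervals whose centre the deposited annotation places in an exon. They numbered 6804 of 126927 peaks over 4 lists, with 1746 of 25427 in WT muscle, 3178 of 50647 in 3SA muscle, 761 of 21813 in WT liver and 1119 of 29040 in 3SA liver. Members were all rows whose annotation begins with exon, without a threshold on any measured value. The estrogen-related receptor α (ERRα) was mapped by ChIP-seq, which sequences the DNA that is pulled down with a protein, in skeletal muscle (gastrocnemius and soleus) and in liver. All animals were male C57BL/6N mice of 2 to 3 months, either wild type (WT) or carrying the ERRα 3SA phospho-mutant allele (3SA), in which 3 phosphorylated serines of the amino-terminal domain are mutated. Tissues were collected at zeitgeber time 9, and each list came from 1 ChIP library made from a pool of 5 mice for muscle or 2 mice for liver. There was therefore no replicate check of any value, no test between groups was possible, the read depth behind the lists is unknown, and the intervals given below cover counting error only.

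ERRα is an orphan nuclear receptor that works with the coactivators PGC-1α and PGC-1β and controls genes of mitochondrial respiration, fatty acid oxidation and the tricarboxylic acid cycle. It is known for its role in oxidative muscle and in liver metabolism, and it binds DNA at the ERR response element (ERRE), TCAAGGTCA, which contains the core nuclear receptor sequence AGGTCA. Nuclear receptors bind mostly at promoters, introns and intergenic enhancers. Exons make up a small part of the genome, are rich in G and C, and often lie close to promoters when they are first exons, so an exon label can stand for a site near the promoter or for one deep inside a gene. The centre of an interval decides its label, and intervals with almost the same position can carry different labels in different lists.

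The sequences below show ERREs that lie inside protein-coding sequence under exon peaks. They are GRCm38 reference sequence read along the strand of the gene, 59 bases each, with the 9 bases of the element in capitals and 25 bases to either side. An element on the coding strand reads TCAAGGTCA and an element on the opposite strand reads TGACCTTGA. The first group holds coding ERREs that lay under a peak of some annotation in all 4 lists and under an exon peak in at least 1 of them.
Cdc42ep1, exon 3 of 3, chr15:78849315-78849373, + strand: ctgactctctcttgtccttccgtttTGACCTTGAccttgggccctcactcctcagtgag
Jun, exon 1 of 1, chr4:95051126-95051184, - strand: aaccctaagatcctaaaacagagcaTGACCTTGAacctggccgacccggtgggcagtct
2300009A05Rik, exon 1 of 2, chr9:63398860-63398918, - strand: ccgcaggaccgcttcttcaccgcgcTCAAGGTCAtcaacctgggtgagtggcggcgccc
Adra1d, exon 2 of 2, chr2:131546468-131546526, - strand: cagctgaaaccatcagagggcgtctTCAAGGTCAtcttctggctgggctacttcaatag
Itgb7, exon 13 of 15, chr15:102216987-102217045, - strand: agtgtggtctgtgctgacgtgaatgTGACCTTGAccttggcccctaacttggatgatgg
H2-M3, exon 2 of 8, chr17:37270689-37270747, + strand: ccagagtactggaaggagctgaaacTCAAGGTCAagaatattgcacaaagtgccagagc
Dhx8, exon 7 of 23, chr11:101739771-101739829, + strand: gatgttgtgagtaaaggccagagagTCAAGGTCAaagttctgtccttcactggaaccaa
Tonsl, exon 16 of 26, chr15:76633620-76633678, - strand: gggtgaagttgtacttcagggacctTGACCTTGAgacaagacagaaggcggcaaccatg
The next 3 lay under an exon peak of a skeletal muscle or mitochondrial gene and under a peak of 1 or 2 lists.
Ttn, exon 28 of 313, chr2:76945055-76945113, - strand: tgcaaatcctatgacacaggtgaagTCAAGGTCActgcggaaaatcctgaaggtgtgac
Ttn, exon 81 of 313, chr2:76885649-76885707, - strand: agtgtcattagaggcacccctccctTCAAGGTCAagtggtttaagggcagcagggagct
Ogdh, exon 6 of 24, chr11:6334530-6334588, + strand: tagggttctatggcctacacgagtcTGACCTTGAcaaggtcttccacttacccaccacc

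Of these elements, the one in the last exon of *Cdc42ep1*, an effector of the small GTPase CDC42, was the single coding ERRE under an exon peak in all 4 lists. Its peak scores were 73 in WT muscle, 42 in 3SA muscle, 160 in WT liver and 294 in 3SA liver, and the peak centres lay 95, 5, 47 and 42 bp from the element. The peak score is the number by which the peak caller ranks intervals within a list, and scores are not compared between lists. *Jun*, an immediate early transcription factor gene with a single exon, had an exon peak at its element in WT muscle (score 178), WT liver (268) and 3SA liver (310), and the 3SA muscle interval (448), centred 366 bp away, was labelled 5′ UTR. *2300009A05Rik* followed the same pattern, with exon labels in WT muscle (233), WT liver (318) and 3SA liver (645) and a promoter label in 3SA muscle (386). These were intervals found in every list whose label changed with the position of the centre.

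*Adra1d*, an α1-adrenergic receptor gene, had exon labels at 99, 91 and 143 in WT muscle, 3SA muscle and WT liver and an intron label at 135 in 3SA liver. *Itgb7*, an integrin of lymphocytes, scored 42, 119 and 147 as exon in WT muscle, WT liver and 3SA liver, and 91 as intron in 3SA muscle. *Dhx8*, a splicing helicase gene, was labelled exon in both liver lists alone (53 and 102), with intron labels at 30 and 36 in muscle. The 2 *Ttn* elements, in the gene of the giant sarcomere protein titin, had peaks in muscle lists alone, in exon 28 at 51 (WT) and 32 (3SA) and in exon 81 at 119 (3SA). The element in exon 6 of *Ogdh*, a subunit gene of the tricarboxylic acid cycle enzyme 2-oxoglutarate dehydrogenase, had a peak in 3SA liver alone, at a score of 270.

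Exon peaks made up a larger share of the muscle lists than of the liver lists. The share was 6.87% in WT muscle (6.56 to 7.18), 6.27% in 3SA muscle (6.07 to 6.49), 3.49% in WT liver (3.25 to 3.74) and 3.85% in 3SA liver (3.64 to 4.08), each with a 95% Wilson interval. Muscle exceeded liver by 1.97-fold in WT (1.81 to 2.14) and by 1.63-fold in 3SA (1.52 to 1.74), and the genotypes differed by less. The share in 3SA was 0.914 times that of WT in muscle (0.864 to 0.967) and 1.10 times in liver (1.01 to 1.21), and the liver ratio fell to 0.867 among peaks with a score of at least 100. Coding exons of RefSeq cover 1.33% of the known bases of the 21 chromosomes, so all 4 shares lay above the level of the genome.

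The surroundings of the peaks were also richer in exons than the genome. When each peak centre was moved by 5 kb to either side, 2.95%, 2.83%, 2.57% and 2.88% of the moved centres fell in a RefSeq coding exon in WT muscle, 3SA muscle, WT liver and 3SA liver. Unmoved centres did so in 7.67%, 6.87%, 3.92% and 4.39%. The excess of peaks over moved centres was 2.60-fold and 2.43-fold in the muscle lists and 1.52-fold and 1.53-fold in the liver lists. The moved level was thus similar in both tissues, and the tissues differed in the unmoved centres.

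**Figure D1:**
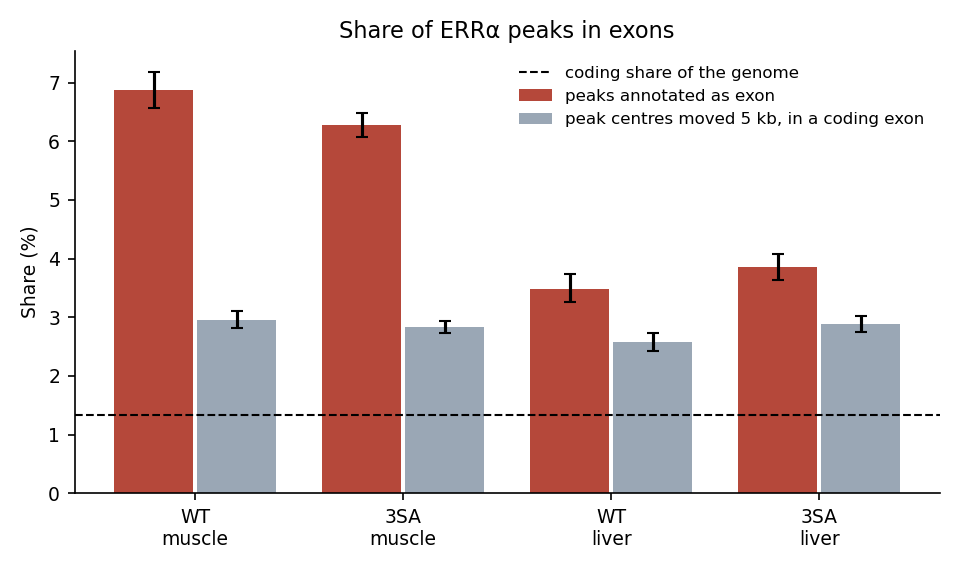
Share in percent of ERRα peaks annotated as exon (red) in each list, and of peak centres moved 5 kb to either side that fell in a coding exon (grey), with 95% Wilson intervals of counting error as bars; the dashed line is the coding share of the genome (1.33%). The muscle bars (6.87% and 6.27%) stand above the liver bars (3.49% and 3.85%), whereas the moved centres lie between 2.57% and 2.95% in all 4 lists.

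Exon peaks fell in long exons. The exon under the peak had a median length of 255, 236, 209 and 214 bp in the 4 lists in the same order, beside 124 bp over all coding exons. Exons of at least 300 bp held 44.9%, 42.3%, 36.9% and 36.5% of the exon peaks, and 7.84% of all coding exons are that long. Since a long exon is hit more often by any point, the moved centres give the fairer level, and 32.0%, 30.7%, 31.8% and 32.0% of those in coding exons lay in exons of that length. The muscle lists thus exceeded the moved centres by more than the liver lists did. The called intervals had a median width of 471, 469, 439 and 420 bp, and a median of 55.9%, 55.7%, 53.8% and 54.3% of their bases was coding, so that most exon peaks also covered intron or UTR sequence. Between 16.3% and 18.3% of them covered more than 1 coding exon.

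In the other direction, 3355, 5745, 1958 and 2828 intervals of the 4 lists overlapped a coding exon while their centre carried another label, mostly intron (2286, 4303, 1396 and 1935). The gene of the exon also differed from the gene with the nearest transcription start site (TSS) for 29.7%, 35.1%, 31.9% and 29.0% of the exon peaks. Exon peaks are therefore assigned below to the gene whose transcript the exon annotation names.

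The GC content of exon peaks was above that of the lists they came from. The median was 57.4% in WT muscle, 57.0% in 3SA muscle, 55.5% in WT liver and 56.4% in 3SA liver, beside 53.5%, 53.1%, 50.2% and 50.4% over all peaks. Exon peaks thus lay 3.94, 3.93, 5.21 and 5.96 percentage points above all peaks, and intron peaks (53.2%, 53.0%, 50.2% and 50.3%) stayed close to the lists. Promoter peaks were higher than exon peaks in muscle (60.3% and 58.5%) and about level with them in liver (55.4% and 56.1%). Peaks labelled 5′ UTR had medians of 64.8%, 64.0%, 59.7% and 61.8%.

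The GC content of exon peaks was also above that of the moved centres in coding exons. In windows of 300 bp, the median GC content was 58.3%, 57.7%, 56.3% and 57.0% for exon peaks and 56.0%, 56.0%, 55.0% and 55.7% for the moved centres in coding exons. Over all 205297 coding exon windows it was 49.7%. These windows count each exon once, whereas moved centres fall more often in long exons. The exons under moved centres had median lengths of 182, 180.5, 180 and 179 bp, beside 124 bp over all coding exons. A 300-bp window on a shorter exon holds more sequence beside the exon, so the 49.7% is not a like level. Exon peaks in first exons were the richest class by position, with medians of 66.1%, 63.0%, 63.9% and 65.1%, against 56.5%, 56.4%, 54.5% and 55.0% in internal exons. GC content can change how well fragments are amplified and sequenced, and its part in the number of exon peaks was not tested.

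**Figure D2:**
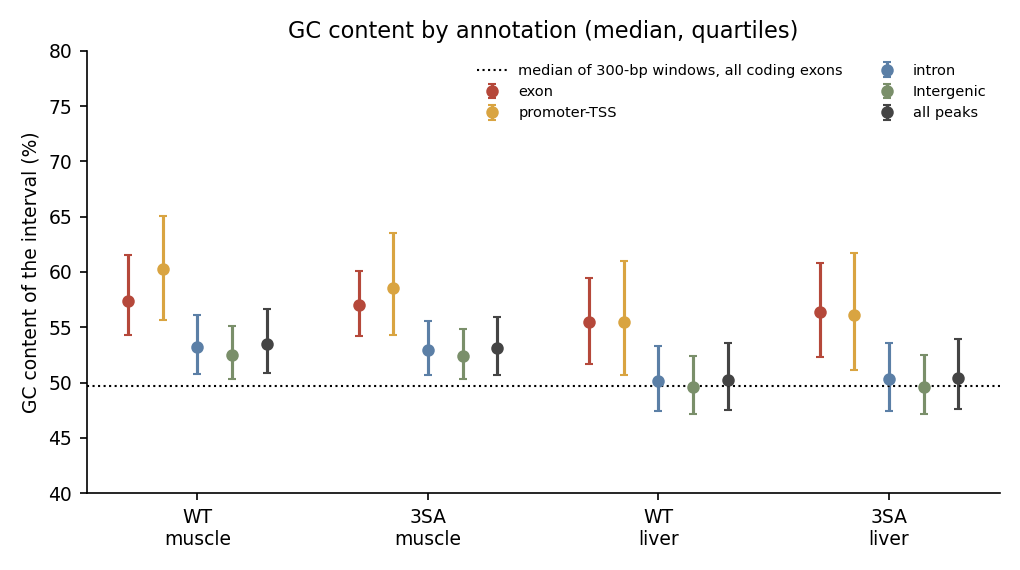
GC content in percent of the called intervals by annotation class in each list, as medians (points) with the lower and upper quartiles (bars); the dotted line is the median of 300-bp windows on all coding exons (49.7%). Exon medians (57.4%, 57.0%, 55.5% and 56.4%) lie above those of introns, intergenic sequence and all peaks in every list.

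The 3SA to WT ratio of exon peak numbers depended on the position of the exon, and it did so in opposite ways in muscle and liver. In muscle, exon peaks were 1.82 times as many in 3SA as in WT (1.72 to 1.93), beside 1.99 for all peaks. Peaks in first exons numbered 315 in 3SA and 301 in WT, a ratio of 1.05 (0.894 to 1.23), whereas peaks in internal exons numbered 2111 and 1048, a ratio of 2.01 (1.87 to 2.17). Last exons had a ratio of 1.99. The net gain of exon peaks in 3SA muscle thus lay mostly outside first exons. By distance to the TSS the muscle ratio was 1.18 up to 1 kb, 1.72 from 1 to 5 kb, 2.12 from 5 to 20 kb, 2.22 from 20 to 50 kb and 2.04 beyond 50 kb. The promoter and 5′ UTR classes of the same lists had ratios of 1.25 and 1.203, and intron and intergenic peaks had 2.00 and 2.16.

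In liver, exon peaks were 1.47 times as many in 3SA as in WT (1.34 to 1.61), beside 1.33 for all peaks. First exons had the highest ratio of the 4 exon positions, 2.19 (1.71 to 2.82), from 193 peaks in 3SA and 88 in WT. Internal, last and only exons, the last being genes with a single exon, had ratios of 1.41, 1.28 and 1.30. Within 1 kb of a TSS the ratio was 1.75, and promoter and 5′ UTR peaks had 1.56 and 1.64, against 1.36 for introns and 1.23 for intergenic peaks. First exons accordingly made up 17.2% of exon peaks in WT muscle and 9.91% in 3SA muscle, but 11.6% in WT liver and 17.2% in 3SA liver. Restricted to scores of at least 50, the 3SA to WT ratio of this share was 0.822 in muscle and 1.10 in liver, in place of 0.575 and 1.49.

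**Figure D3:**
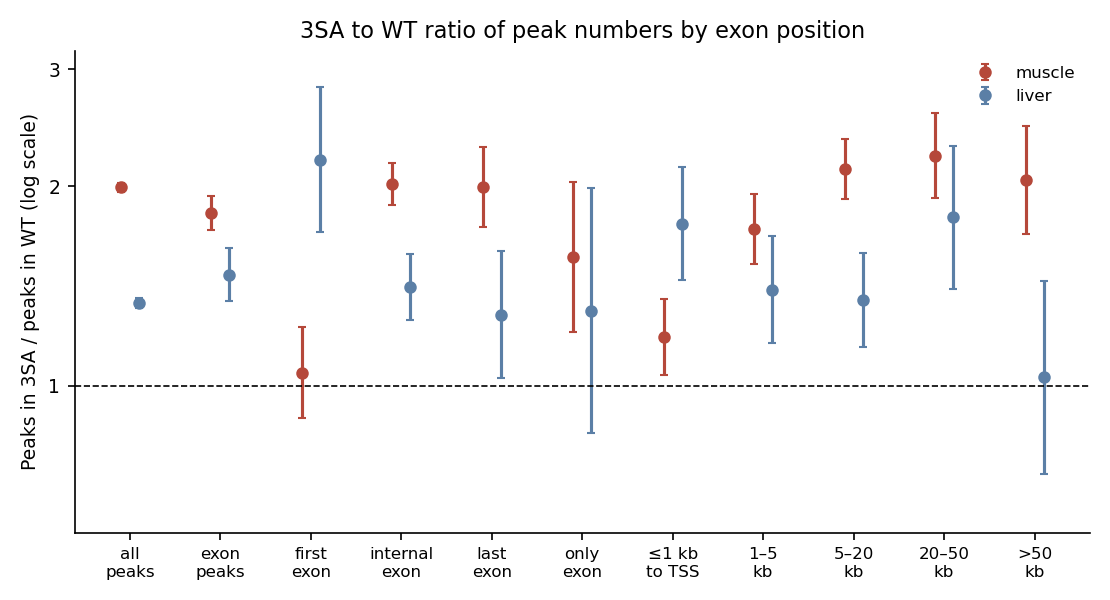
Number of peaks in 3SA divided by the number in WT (logarithmic axis) for all peaks, all exon peaks and exon peaks by exon position and by distance to the TSS, in muscle (red) and liver (blue), with bars for counting error; the dashed line marks equal numbers. In muscle first exons (1.05) and exon peaks up to 1 kb from a TSS (1.18) are the low points, and in liver first exons (2.19) are the high point.

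Exon peaks reached high scores less often than the lists as a whole, though within counting error in WT liver. In WT muscle 59 exon peaks (3.38%) scored at least 100, against 4.66% of all peaks. The corresponding values were 105 (3.30%) against 5.14% in 3SA muscle, 118 (15.5%, 13.1 to 18.3) against 17.3% in WT liver and 162 (14.5%) against 20.6% in 3SA liver. Intergenic peaks reached that score in 3.45%, 3.81%, 14.5% and 19.2% of cases in the 4 lists, and promoter peaks in 11.8%, 15.3%, 28.1% and 28.8%. Among the best 1% of each list, exon peaks were 9, 15, 3 and 2 in number, or 0.515%, 0.472%, 0.394% and 0.179% of all exon peaks. Of the exon peaks in first exons, 7.64%, 9.52%, 23.9% and 15.5% scored at least 100, against 2.67%, 2.42%, 14.1% and 14.2% in internal exons. In WT liver the interval of first exons (16.2 to 33.7, from 21 peaks) overlapped that of internal exons (11.3 to 17.5) and spanned the 17.3% of all peaks. In 3SA liver the first exons (11.1 to 21.3) were level with internal exons within counting error and not above the 20.6% of all peaks.

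The exon peaks of WT muscle with the highest scores were at *Sdhb*, *Esrra*, *Pyurf*, *Abhd11*, *Lamb2* and *Uqcrc1*. Exon 1 of *Sdhb*, the iron-sulfur subunit of succinate dehydrogenase, scored 2867 and ranked 10 in the list (chr4:140960781-140962083). The interval was found in every list, at 3240 in 3SA muscle with a promoter label, 1114 in WT liver with an intron label and 1808 in 3SA liver with a promoter label. Exon 2 of *Esrra*, which encodes ERRα, followed with a score of 1544 at rank 27 (chr19:6920019-6920501, 1548 bp from the TSS). In 3SA muscle a single wide interval labelled as a transcription termination site covered the same bases (chr19:6919626-6923726, score 5343, rank 6). WT liver had no interval there, and 3SA liver had an overlapping one with an intron label at a score of 77. The other peaks named for WT muscle were at *Pyurf* (756), *Abhd11* (627), *Lamb2* (600), a basement membrane laminin gene, and *Uqcrc1* (586), a core subunit gene of respiratory complex III.

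The central 300 bases of the *Esrra* and *Uqcrc1* peaks, and of the *Gipc1* peak of WT liver, are shown as examples of strong exon peaks with no AGGTCA, with 2 copies and with a full ERRE. In *Esrra* the capitals mark the start codon, which the peak covers together with the coding sequence that follows it. That stretch encodes the start of the amino-terminal domain, and the sequence shown is the reference and not the mutated allele. It includes the codons of the 3 serines that are mutated in 3SA, so the 3SA allele differs from it there. Whether this bears on the peaks at the site was not tested. In *Uqcrc1* and *Gipc1* the capitals mark AGGTCA, which reads TGACCT where it is on the opposite strand. In *Gipc1* the 3 bases after the capitals complete the ERRE on the opposite strand, and this ERRE lies beyond the end of the coding exon. In *Uqcrc1* the first copy lies before the coding exon and the other lies within it.
Esrra, chr19:6920111-6920410, - strand: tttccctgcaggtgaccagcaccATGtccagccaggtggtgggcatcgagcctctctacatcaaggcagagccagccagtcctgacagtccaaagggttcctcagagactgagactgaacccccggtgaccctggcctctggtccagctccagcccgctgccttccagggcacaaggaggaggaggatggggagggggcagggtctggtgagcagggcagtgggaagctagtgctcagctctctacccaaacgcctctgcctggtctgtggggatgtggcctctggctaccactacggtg
Uqcrc1, chr9:108936893-108937192, + strand: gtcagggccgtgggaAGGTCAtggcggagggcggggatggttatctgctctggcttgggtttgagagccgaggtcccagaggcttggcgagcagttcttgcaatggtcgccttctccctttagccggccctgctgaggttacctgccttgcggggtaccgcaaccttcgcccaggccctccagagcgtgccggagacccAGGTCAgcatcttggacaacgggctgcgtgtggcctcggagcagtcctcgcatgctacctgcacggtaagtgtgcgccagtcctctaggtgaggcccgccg
Gipc1, chr8:83662220-83662519, + strand: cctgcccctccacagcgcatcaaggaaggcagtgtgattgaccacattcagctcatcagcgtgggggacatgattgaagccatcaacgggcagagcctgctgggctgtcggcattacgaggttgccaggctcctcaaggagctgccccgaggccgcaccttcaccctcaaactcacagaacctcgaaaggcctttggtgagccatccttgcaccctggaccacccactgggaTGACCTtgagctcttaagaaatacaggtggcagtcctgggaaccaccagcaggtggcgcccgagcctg
The *Esrra* window had a GC content of 62.7%, 277 coding bases and 12 UTR bases. The *Uqcrc1* window held 141 coding bases and the *Gipc1* window 181, the rest being outside the coding exons.

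In 3SA muscle the exon peaks with the highest scores were at *Nfatc2* (exon 8, 1182, rank 82), *Hcfc1* (1002), *Grwd1* (956), *Ccdc80* (894), *Cyp2u1* (800) and *Spag7* (670). *Nfatc2* encodes a calcium-regulated transcription factor, and its site was present in all lists, with exon labels in muscle (439 in WT) and intron labels in WT liver (390) and 3SA liver (756). The *Hcfc1* site, in the gene of a transcriptional cofactor, was a muscle site with an intron label at 2062 in WT and no interval in either liver list. *Cyp2u1*, a cytochrome P450 gene, carried an exon label in its first exon in all 4 lists (290, 800, 348 and 663). All 6 sites also had a peak within 300 bp in WT muscle, so these strong exon peaks of 3SA muscle were present in both genotypes.

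In WT liver the corresponding peaks were at *Chchd10* (1509), *Mindy1* (1142), *Tcf4* (811), *Gipc1* (568), *Lrp1* (549) and *Tle5* (521). *Chchd10* encodes a protein of the mitochondrial intermembrane space, and its exon 2 site had intron labels in muscle (1578 in WT and 1894 in 3SA) and an overlapping interval with a 5′ UTR label in 3SA liver (1946). Exon 23 of *Lrp1*, an endocytic lipoprotein receptor gene, scored 549 in WT liver and 794 in 3SA liver, and the muscle intervals at the site were labelled intron (115 and 139). *Gipc1* encodes an adaptor of membrane trafficking, and its site had scores of 49 in WT muscle and 91 in 3SA muscle beside 568 in WT liver and 682 in 3SA liver. The *Mindy1* interval was 3020 bp wide, and WT muscle had none there. In 3SA liver the peaks named were at *Tcf4* (1153), *Etfa* (950), *Wdr82* (796), *Lrp1* (794), *Amn* (794) and *H2-DMa* (711). *Etfa*, a subunit gene of the electron transfer flavoprotein of fatty acid oxidation, had its site in all lists with intron labels elsewhere (518, 758 and 749).

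Sharing between the genotypes was close to that of all peaks in muscle and lower in 3SA liver. A peak was called shared when the centre of a peak of the other list lay within 300 bp. Of the exon peaks of WT muscle, 323 (18.5%, 16.7 to 20.4) had a partner in 3SA muscle, against 20.2% of all peaks of the list. Of those of 3SA muscle, 330 (10.4%, 9.37 to 11.5) had one in WT muscle, against 10.1%. The liver lists shared more. In WT liver 308 exon peaks (40.5%, 37.0 to 44.0) had a partner in 3SA liver, against 42.9%, and in 3SA liver 291 (26.0%, 23.5 to 28.7) had one in WT liver, against 32.2%. In muscle the comparison with all peaks turned with the setting. The 3SA muscle value was 1.02 times that of all peaks, 0.857 times with centres within 100 bp and 0.719 times among peaks scoring at least 50 in both lists, and the WT muscle value was 0.916 times that of all peaks and 1.01 times with centres within 1000 bp.

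Most of the low sharing belonged to peaks of low score, as it did in the lists as a whole. In WT muscle, 12.5% of the exon peaks scoring 30 to 39 were shared, against 86.5% of those scoring 100 to 199 and 90.9% of those scoring 200 or more, and the values over all peaks were 12.0%, 80.6% and 85.4%. In 3SA muscle the shared part rose from 6.83% to 65.2% and 74.4% over the same ranges. In liver the exon peaks of at least 100 were shared in 88.1% (WT) and 83.3% (3SA) of cases, beside 87.7% and 82.0% of all peaks. First exons were shared in 29.2%, 23.8%, 51.1% and 29.0% of cases and internal exons in 15.6%, 8.29%, 40.5% and 25.3%, with overlapping intervals in both liver lists. A shared partner was itself labelled exon in 62.5% and 61.2% of muscle pairs and 56.5% and 59.8% of liver pairs, and most of the others were labelled intron.

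**Figure D4:**
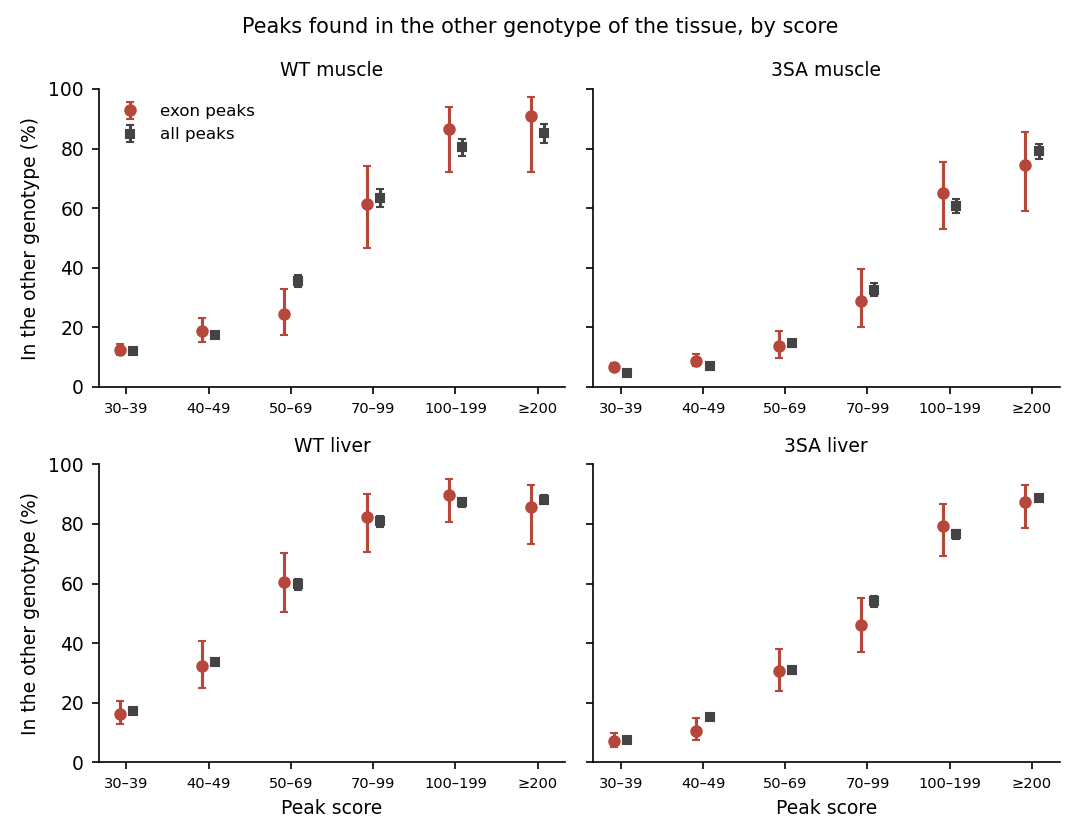
Share in percent of exon peaks (red circles) and of all peaks (grey squares) that had a peak centre within 300 bp in the other genotype of the same tissue, by peak score, in 4 panels for the 4 lists; bars are 95% Wilson intervals of counting error. Both series rise together with score, from 12.5% to 90.9% for exon peaks in WT muscle and from 6.83% to 74.4% in 3SA muscle.

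Between tissues, the direction of the comparison depended on the list from which it was read. Of the WT muscle exon peaks, 160 (9.16%) had a partner in WT liver, against 11.7% of all peaks, and of the 3SA muscle exon peaks 283 (8.90%) had one in 3SA liver, against 11.5%. Read from liver, 144 exon peaks of WT (18.9%) had a partner in WT muscle, against 13.6%, and 261 of 3SA (23.3%) had one in 3SA muscle, against 20.1%. Exon peaks of liver were thus found in muscle more often than liver peaks in general, and exon peaks of muscle were found in liver less often than muscle peaks in general.

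Merged over the 4 lists, the exon peaks formed 6095 sites, of which 4904 (80.5%) were in 1 list, 802 (13.2%) in 2, 213 (3.49%) in 3 and 176 (2.89%) in all 4. Over all 103198 sites of any annotation, the shares were 84.1%, 10.9%, 3.02% and 2.02%. A site counted as an exon site when any of its peaks carried the exon label. Sites in more lists thus had more chances to qualify, which by construction raises their share among exon sites. Sites of 3SA muscle alone were 2602, of WT muscle alone 1301, of 3SA liver alone 641 and of WT liver alone 360, while 274 were in both muscle lists, 199 in both liver lists and 149 in both 3SA lists. Of the 176 sites in all lists, 26 carried the exon label in each of them. The 6 sites with the best mean rank were at *Uqcrc1*, *Etfa*, *Tcf4*, *Smim20*, *Pdzd7* and *Nfatc2*. *Uqcrc1* scored 586, 696, 826 and 1209 in WT muscle, 3SA muscle, WT liver and 3SA liver, and *Smim20*, which encodes a small protein of cytochrome c oxidase assembly, scored 1089, 1050, 411 and 633. At *Uqcrc1* the exon label came from WT muscle alone and at *Smim20* from WT liver alone, so the intervals there were present under several labels.

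The ERRE was rarer in exon peaks than in all peaks but more frequent than in other windows on coding exons. Such windows can reach beyond the exon, so an element counted here need not be coding. TCAAGGTCA was searched on both strands in the central 300 bp. It was present in 34 exon peaks of WT muscle (1.95%, 1.40 to 2.71) against 3.92% of all peaks, in 81 of 3SA muscle (2.55%, 2.06 to 3.16) against 4.28%, in 62 of WT liver (8.15%, 6.41 to 10.3) against 14.6%, and in 86 of 3SA liver (7.69%, 6.27 to 9.39) against 15.2%. Peaks labelled 5′ UTR held the ERRE in 0.441%, 1.83%, 5.22% and 3.17% of cases, from 1, 5, 6 and 6 peaks. Promoter peaks did in 3.50%, 3.53%, 11.1% and 8.68%. Windows 5 kb to either side of the exon peaks held it in 0.945%, 1.02%, 1.45% and 1.03% of cases, moved centres in coding exons in 0.666%, 0.733%, 1.07% and 0.479%, and all coding exon windows of the same length in 0.525%. The shorter AGGTCA, which is part of the ERRE and is counted in it, was in 24.2%, 25.8%, 45.1% and 43.8% of exon peaks, against 27.0%, 28.8%, 48.7% and 51.7% of all peaks and 19.2% of all coding exon windows. Liver exon peaks held either motif more often than muscle exon peaks did.

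The ERRE share of exon peaks followed sharing between genotypes and score, and that of all peaks did so too. In WT muscle 6.81% of the exon peaks with a partner in 3SA held the ERRE, and 0.843% of those without one did, beside 0.878% in the windows next to them. In 3SA muscle the values were 6.06% with a partner in WT and 2.14% without. In WT liver they were 16.2% and 2.65%, and in 3SA liver 14.8% and 5.19%. Over all peaks, in the same list order, they were 12.3% and 1.79%, 12.4% and 3.36%, 25.1% and 6.71%, and 25.3% and 10.4%. At a score of at least 100, 11.9%, 8.57%, 17.8% and 15.4% of exon peaks held the ERRE, against 1.31%, 1.99%, 4.43% and 4.34% under 50. The exon peaks of WT muscle without a partner thus held the ERRE no more often than their surroundings within counting error. Internal exons held it more often than first exons, in 2.29%, 2.94%, 9.27% and 8.73% of cases against 1.00%, 1.27%, 4.55% and 2.07%. The first exon values rest on 3 or 4 peaks with the element in each list, and their intervals overlapped those of internal exons in all lists but 3SA liver.

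**Figure D5:**
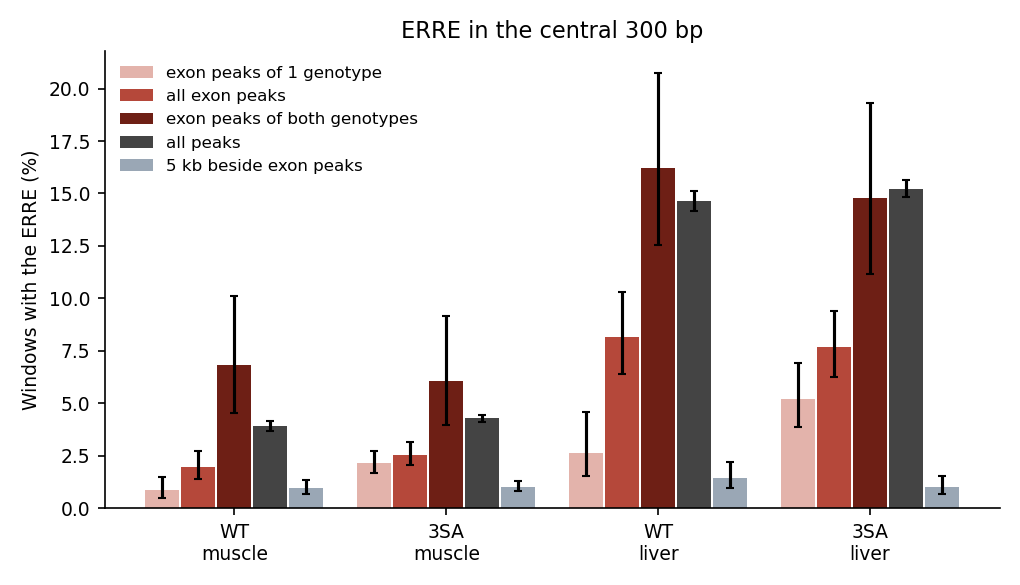
Share in percent of windows with the ERRE in the central 300 bp, for exon peaks without a partner in the other genotype, all exon peaks, exon peaks with a partner, all peaks of the list, and windows 5 kb to either side of exon peaks, with 95% Wilson intervals of counting error as bars. In every list exon peaks with a partner hold it more often (6.81%, 6.06%, 16.2% and 14.8%) than those without (0.843%, 2.14%, 2.65% and 5.19%).

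Coding sequence of RefSeq contained 637 ERREs, 293 on the coding strand and 344 on the opposite strand. Exon peaks covered 29 of them in WT muscle, 70 in 3SA muscle, 42 in WT liver and 61 in 3SA liver, and 129 (20.3%) in at least 1 list. Of these 129, 79 were under an exon peak in 1 list, 28 in 2, 21 in 3 and 1 in 4. The reading frame limits which positions occur. On the opposite strand none of the 344 elements began at the first codon position, where the letters TGA would be a stop codon, and 122 and 222 began at the second and the third. On the coding strand 190 of 293 began at the second codon position, and so did 57 of the 70 under exon peaks.

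Exon peaks fell in 1615 of 20996 protein-coding genes in WT muscle (7.69% of genes), 2722 in 3SA muscle (13.0%), 730 in WT liver (3.48%) and 1046 in 3SA liver (4.98%). These genes had long coding sequences, with a median coding length of 1881, 1914, 1792.5 and 1699.5 bases beside 1230 over all genes. Both muscle lists had 568 of them in common (35.2% of WT and 20.9% of 3SA), both liver lists 210 (28.8% and 20.1%), both WT lists 188 (11.6% of muscle and 25.8% of liver) and both 3SA lists 337 (12.4% and 32.2%). In all, 4674 genes had an exon peak in some list and 43 in every list. Those 43 included *Irs2*, an adaptor of insulin signalling, *Ndufc2*, a complex I subunit gene, *Plin3*, a lipid droplet protein gene, and the cytoskeletal linker genes *Plec* and *Eppk1*.

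The tissue character of the genes was read from lists of textbook genes, since the files hold no expression values. In muscle, 9 of 30 skeletal muscle genes had an exon peak in WT and 8 in 3SA, beside the 7.69% and 13.0% of all genes given above, and in liver 4 did in each genotype. Muscle genes are long, however, and a count per coding length is the fairer measure. Muscle genes had 6.46 and 9.05 exon peaks per 100 kb of coding sequence in WT and 3SA muscle and 1.72 in both liver lists, against 4.94, 9.005, 2.14 and 3.16 over all genes. Among 29 liver genes, 1 and 5 had an exon peak in WT and 3SA muscle and 3 and 6 in WT and 3SA liver, or 3.22, 8.04, 4.82 and 12.9 per 100 kb. The muscle genes of 3SA muscle were thus level with all genes, and these values rest on counts of 2 to 21 peaks.

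Most exon peaks in muscle genes were of low score and in 1 genotype, as were most exon peaks of the muscle lists. WT muscle had 15, at genes that included *Ttn*, *Ryr1*, *Ckm*, *Des*, *Ldb3*, *Mybpc2*, *Mylpf* and *Pygm*, of which 11 had no interval at that place in 3SA muscle. 3SA muscle had 21, at genes that included *Ttn*, *Myh1*, *Myh4*, *Acta1*, *Actn2*, *Ckm* and *Eno3*, of which 17 had none in WT muscle. By centre distance, 3 of the 15 and 4 of the 21 had a partner in the other genotype, beside 18.5% and 10.4% of all exon peaks of these lists. In each of these sets 2 reached a score of 50 and 1 of them 100, namely *Mylpf*, a fast myosin light chain gene, at 104 in WT muscle and *Ttn* exon 81 at 119 in 3SA muscle. *Ttn*, with 103050 coding bases, led WT muscle with 4 peaks and had 4 in 3SA muscle and 0 in liver.

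In liver, exon peaks at muscle genes included a *Ckm* peak at 49 in WT, and *Pygm*, the muscle glycogen phosphorylase gene, at 185 and *Ryr1*, the calcium release channel gene, at 96 in 3SA. The *Pygm* site was present in every list with intron labels elsewhere (157, 110 and 159). The *Ryr1* site also had intervals with intron labels in WT muscle (137), 3SA muscle (149) and WT liver (69). At the *Ckm* site WT muscle (148) and 3SA muscle (435) had intervals with intron labels, and 3SA liver had none. Of the liver genes, *Ass1*, a urea cycle enzyme gene, had an exon peak at 382 in 3SA liver and at 33 in 3SA muscle, and WT liver had the site at 401 with an intron label. *Ambp*, a plasma protein gene, scored 177 in exon 1 in WT liver, and the 3SA liver interval was labelled promoter (299). The other liver gene peaks of 3SA liver, in *C3*, *Fga*, *Fn1*, *Hp* and *Itih3*, which encode plasma proteins, scored 32 to 68. The genes with most exon peaks in liver were *Pck1*, the rate-limiting enzyme gene of gluconeogenesis, with 3 in WT (168, 69 and 38) and 1 in 3SA, and *Eppk1*, *Atg2a* and *Fasn*, the fatty acid synthase gene, with 4, 3 and 3 in 3SA. At all 3 *Pck1* sites of WT liver, 3SA liver also had an interval. Their labels were intron (49), intron (151) and exon (61) in the same order. *Ugt1a5* and *Mybpc3* had 2 each in WT liver.

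Of 30 genes of mitochondrial energy metabolism, 5 had an exon peak in WT muscle, 0 in 3SA muscle, 2 in WT liver and 6 in 3SA liver, where 7.69%, 13.0%, 3.48% and 4.98% of all genes had one. The difference in muscle was one of labels in all but 1 case. WT muscle had 6 peaks, in *Sdhb* (2867), *Uqcrc1* (586), *Ndufa4* (99), *Dlat* (81 and 48) and *Idh3b* (42), and at 5 of these 3SA muscle had an interval labelled promoter, 5′ UTR or intron. The exception was *Dlat* exon 5, which scored 48. Any peak over the gene was present for 24, 27, 23 and 27 of the 30 genes in WT muscle, 3SA muscle, WT liver and 3SA liver, where 37.8%, 50.2%, 32.4% and 39.4% of all genes had one. In 3SA liver the exon peaks included those at *Ogdh* (270), *Cs* (105), the citrate synthase gene, *Ndufv1* (82), *Idh3b* (75) and *Hadha* (54), of which *Idh3b* and *Cs* had an interval in WT liver. The *Ogdh* and *Hadha* peaks had no interval in any other list.

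The other lists held few members, and the shares of all genes with an exon peak to set beside them are 7.69%, 13.0%, 3.48% and 4.98% in WT muscle, 3SA muscle, WT liver and 3SA liver. Of 30 ribosome and translation genes, 0 had an exon peak in WT muscle, 3SA muscle and WT liver and 2 in 3SA liver. Of 10 genes each, immune cell markers had 1, 2, 1 and 1 with an exon peak, endothelial markers 3, 4, 1 and 2, adipocyte markers 1, 0, 0 and 0, and neuron markers 1, 2, 1 and 0. Per 100 kb of coding sequence, endothelial markers had 9.39, 21.9, 3.13 and 6.26 exon peaks, from 3, 7, 1 and 2 peaks, against 4.94, 9.005, 2.14 and 3.16 over all genes. A peak shows binding and not expression, so these counts do not measure the cells in a sample.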

How the data were processed

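ERRα ChIP-seq peak lists of 4 groups were used, with 1 library per group, and the 4 input libraries have no values used here. Per the labels, each sample pooled 3 ChIPs, whereas the study's methods describe 4 immunoprecipitations per genotype. According to the submitters' processing notes and the study's methods, reads were trimmed with Trimmomatic 0.36, mapped to mm10 with BWA 0.7.12, freed of duplicates with Picard 2.0.1, called against input with MACS2 2.1.1.20160309 and annotated with HOMER 4.9.1. The peak score in the deposited lists is the score by which the authors' peak caller ranks intervals, and no interval scored under 30. GC content was deposited as a fraction of the called interval, and it was recomputed from GRCm38 within 0.002 for all but 6 intervals. Read depth is not given in the sources used here, so no floor follows from it.

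Exon peaks were assigned to the gene of the transcript in the exon annotation. Coding exons, genes and sequences were those of RefSeq on GRCm38, which was compared with the lists. Centres within 300 bp counted as shared, and windows were 300 bp. Shares have 95% Wilson intervals, and ratios of numbers follow from the Wilson interval of 1 list in the sum. Computations used Python 3.11.15, numpy 2.4.6, pandas 2.3.3, pysam 0.24.0 and matplotlib 3.10.9, and were tested on simulated data. Genes named by rule were those of the 6 highest-scoring exon peaks per list, the 6 best-ranked sites in all lists, the 3 genes with most exon peaks per list, *Esrra*, and members of the muscle, liver and mitochondrial lists. Genes of coding ERREs in all lists, and the examples among the 43 genes, were chosen after their values were seen. Some results that these rules name are not reported here. The members and the 8 gene lists were chosen with earlier results of these data known. Alternatives were other score minimums, lists of equal length, exon definitions by coding exons, other GC windows, other sharing distances, TNAAGGTCA, the whole interval and the gene of the nearest TSS.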

Additional observations from a re-analysis of the deposited data

Results flagged for a closer look

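For 8 of 15 measures of the exon peaks, the 3SA list differed from the WT list in one direction in muscle and in the opposite direction in liver. The count of 8 rests on the sign of each difference alone, so it includes differences within counting error. With 1 library per group these differences were not tested, and only the values are given, as 3SA minus WT.

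First exons made up 7.33 percentage points less of the exon peaks in 3SA than in WT in muscle (a difference of -7.33) and 5.68 points more in liver. Exon peaks up to 1 kb from a TSS changed by -8.12 points in muscle and 3.94 points in liver. The share of peaks labelled exon changed by -0.592 points in muscle and 0.365 points in liver. The median GC content of exon peaks changed by -0.4015 points in muscle and 0.939 points in liver. The share of exon peaks with the ERRE changed by 0.601 points in muscle and -0.462 points in liver, and that with AGGTCA by 1.58 and -1.28 points. The number of mitochondrial energy metabolism genes with an exon peak changed by -5 in muscle and 4 in liver, and that of neuron markers by 1 and -1. At 5 of the 6 mitochondrial exon peaks of WT muscle, 3SA muscle had an interval with another label. GC content and distance to the TSS moved together with the share of first exons, and the part of each in the others was not tested.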

How the results depend on the processing

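Each value was recomputed under 100 alternatives in all, of which 51 kept it, 44 moved it and 5 reversed it. A value was kept when it stayed within its counting interval and on the same side. Numbers of genes have no such interval and were kept when they stayed within a set ratio of the value. The alternatives for the share of first exons were added after seeing the data. No paired analysis was possible because each group has 1 library. The cause of a change was not tested unless the definition itself makes it. In the order WT muscle, 3SA muscle, WT liver and 3SA liver, the exon share was 5.47%, 5.24%, 3.22% and 3.28% at a score of at least 50, 4.98%, 4.04%, 3.13% and 2.71% at 100, 7.67%, 6.87%, 3.92% and 4.39% for centres in RefSeq coding exons, and 20.05%, 17.6%, 12.4% and 13.6% for intervals overlapping one, a wider definition by construction. At a score of at least 100 the 3SA to WT ratio of exon shares was 0.811 in muscle and reversed to 0.867 in liver. The muscle to liver ratio was 1.70 (WT, score of at least 50), 1.59 (WT, 100), 1.49 (3SA, 100), and 1.61 (WT) and 1.30 (3SA) for overlapping intervals. The 3SA to WT ratio of exon peak numbers became 0.901 in muscle and 1.05 in liver with lists of equal length, which removes the difference in list length by construction, and 1.62 in liver at a score of at least 50. The GC difference to all peaks was 4.67, 4.67, 6 and 6.67 points in 300-bp windows, and 4.18 (WT muscle) and 4.34 (3SA muscle) at a score of at least 50. The share of scores of at least 50, relative to all peaks, was 0.834 in 3SA muscle and 0.852 in 3SA liver. Sharing relative to all peaks was 0.778, 0.857 (reversed) and 0.801 in the first 3 lists with centres within 100 bp, 1.01 (WT muscle, reversed) and 1.16 (3SA muscle) within 1000 bp, and 0.793, 0.719 (reversed) and 0.917 in WT muscle, 3SA muscle and 3SA liver for scores of at least 50 in both lists. Genes with an exon peak numbered 216, 405, 260 and 409 at a score of at least 50. The 3SA to WT ratio of first exon shares was 0.682 in muscle with lists of equal length, and 0.822 in muscle and 1.10 in liver at a score of at least 50. The share with the ERRE relative to all peaks stayed between 0.481 and 0.665 under its 12 alternatives.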

Other observations

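Some exon peaks were far wider than the median. In WT muscle, *Mroh2a* had 3 exon peaks, of which 1 spanned 6117 bp (score 137) and another 6181 bp (score 209), and the gene had 1 exon peak in 3SA muscle, 0 in WT liver and 3 in 3SA liver. Each of the 3 intervals of WT muscle overlapped an interval in every other list, mostly with an intron label. *Arhgef12* had 3 exon peaks in WT muscle, with scores of 314 in exon 1, 46 in exon 38 and 30 in exon 36, and 0 in the other lists. Its exon 1 site was present in every list, with intron labels in 3SA muscle (225), WT liver (249) and 3SA liver (493). *Sptbn4*, a β-spectrin gene, and *Dnah17*, an axonemal dynein gene, had 5 exon peaks each in 3SA muscle, with best scores of 74 and 49.

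*Eppk1* and *Atg2a* had exon peaks in every list. *Eppk1* had 2, 4, 2 and 4 in WT muscle, 3SA muscle, WT liver and 3SA liver, and *Atg2a*, a lipid transfer protein gene of autophagy, had 2, 3, 1 and 3, with best scores of 30, 129, 348 and 481. *Fasn* had 0, 3, 1 and 3.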
